A study of Homo sapiens with 4 samples.

Results

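The genes described here encode the centromere and the kinetochore. They were taken by symbol from a list of 34 names that covers centromere proteins, the outer kinetochore, the SKA complex and the factors that load CENP-A, and a gene was kept if at least 2 libraries held 10 or more of its counts. Of the 34 names, 33 had a row among the 27275 rows of the gene table, and all 33 were kept and passed the expression filter, so 33 of 15840 tested genes are members. The lowest deposited count of a member in any library was 96.1, for CENPP. The name CASC5 had no row, and its current symbol KNL1 is described beside the members without being counted among them. All samples were C4-2 cells, an established androgen-independent prostate cancer line that descends from LNCaP. The control group was transfected with a scrambled siRNA (2 libraries) and the other group with a pool of siRNAs against RRM2 (2 libraries), which encodes the small subunit of ribonucleotide reductase. No other treatment is given in the labels, 1 line and 1 pool were used, and knockdown was checked by the study at 2 or 3 days. The labels do not say whether the libraries within each group are separate cultures, so the p-values reflect library-to-library spread alone, which could be technical.

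The centromere is the chromosomal site where the spindle attaches. Its chromatin carries CENP-A, a variant of histone H3 that the chaperone HJURP deposits, and a constitutive inner layer of CENP proteins sits on it throughout the cell cycle. In mitosis the inner layer recruits the KNL1, MIS12 and NDC80 complexes, whose NDC80 arm binds microtubules. The SKA complex strengthens that grip, and a fibrous corona with the motor CENP-E and the dynein recruiters forms on unattached kinetochores. Many of these genes are transcribed late in the cell cycle, and a short promoter element called CHR, bound by the DREAM and MuvB complexes, and CCAAT boxes, bound by NF-Y, are common in such genes. E2F factors bind promoters of genes used from the G1/S transition onward.

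The NDC80 complex is built from NDC80, NUF2, SPC24 and SPC25, and its 4 genes did not move in 1 direction, as described further on. Their promoters are shown with those of CENPF and DSN1, the members with the lowest and the highest log2 fold change. Each run is RefSeq sequence of GRCh38.p14 on the strand of the gene, 5′ to 3′, from 120 bases before the transcript start to 30 bases after it. Capitals mark matches, on either strand, to 1 of 3 motifs. The CHR was searched as TTTGAA and in its variant form TTCGAA. The NF-Y box was searched as CCAAT. The E2F core was searched as GCGGGAA and in its variant form GCGCGAA. None of these motifs lies within another, and TTCGAA reads the same on both strands. Matches outside the printed runs are not shown. Among them are CHR matches (TTTGAA) of CENPF, with its first base at 41, and of SPC25, at -247.
NDC80, chr18:2571437-2571586, plus strand: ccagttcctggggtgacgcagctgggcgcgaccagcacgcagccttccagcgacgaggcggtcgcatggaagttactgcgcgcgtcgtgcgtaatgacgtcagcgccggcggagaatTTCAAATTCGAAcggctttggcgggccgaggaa
NUF2, chr1:163321834-163321983, plus strand: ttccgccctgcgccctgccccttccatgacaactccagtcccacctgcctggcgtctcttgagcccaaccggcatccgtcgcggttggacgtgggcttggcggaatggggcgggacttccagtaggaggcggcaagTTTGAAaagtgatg
SPC25, chr2:168890401-168890550, minus strand: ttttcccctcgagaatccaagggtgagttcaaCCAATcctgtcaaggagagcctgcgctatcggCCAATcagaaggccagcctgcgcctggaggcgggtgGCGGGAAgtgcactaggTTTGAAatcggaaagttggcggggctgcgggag
SPC24, chr19:11155753-11155902, minus strand: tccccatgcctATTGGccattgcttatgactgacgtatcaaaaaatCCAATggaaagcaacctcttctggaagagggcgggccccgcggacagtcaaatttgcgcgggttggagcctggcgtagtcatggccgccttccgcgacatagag
CENPF, chr1:214603075-214603224, plus strand: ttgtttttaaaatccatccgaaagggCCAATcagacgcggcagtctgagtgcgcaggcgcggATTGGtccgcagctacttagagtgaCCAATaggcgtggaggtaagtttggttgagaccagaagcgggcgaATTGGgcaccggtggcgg
DSN1, chr20:36773734-36773883, minus strand: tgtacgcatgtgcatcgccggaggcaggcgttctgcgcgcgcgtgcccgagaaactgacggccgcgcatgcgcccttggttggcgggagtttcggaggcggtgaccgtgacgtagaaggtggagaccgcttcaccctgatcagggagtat

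The 4 libraries held 27844121 to 29941671 counts. RRM2 had 1333 and 1239 normalized counts in the controls and 118 and 125 after RRM2 siRNA. By edgeR its log2 fold change was -3.41, with a standard error (SE) of 0.08 and an adjusted p = 2.60e-13. Ribosomal RNA genes took 6.13% of the counts in RRM2 siRNA replicate 2 and 2.14% to 2.45% in the others. All 9 prostate lineage markers searched passed the filter, with KLK3 (prostate-specific antigen) at 158908 to 179389 normalized counts. Of 10 markers of blood, endothelial, stromal and muscle cells, PTPRC, CD3E and DCN had 0 to 3 counts per library. The summed normalized counts of the 10 were 1475 and 1512 in the controls and 1822 and 1930 after RRM2 siRNA, and directions differed among those tested. ACTA2 (log2 fold change 1.85), PECAM1 (1.42), LYZ (0.59) and COL1A1 (0.18) rose, while VWF, at -0.23, and COL3A1, at -0.24, did not pass. Their part in the results was not tested.

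With RRM2 siRNA, centromere and kinetochore genes moved in both directions, as did the tested genes as a whole. Of the 33, 9 fell, 13 rose and 11 missed the threshold, an adjusted p under 0.05 (edgeR's quasi-likelihood test, adjusted over all 15840 genes). Over all tested genes 25.0% were lower and 25.4% were higher, against 27.3% and 39.4% of the members. The median log2 fold change of the members was 0.09, against 0.00 over all genes tested, and their values ran from -0.71 for CENPF to 0.64 for DSN1. That median was 0.017 without RRM2 siRNA replicate 1 and 0.040 without scrambled siRNA replicate 1. The count of higher members depended on the test and on 1 library. It was 7, or 21.2%, with DESeq2, which called 17.4% of all tested genes higher, and also 7 without RRM2 siRNA replicate 1, where 20.5% of all tested genes were higher. Of the 9 lower calls 7 held under every alternative fit run (CENPF, CENPE, CENPW, NDC80, NUF2, MIS12 and ZWILCH), and of the 13 higher calls 6 did (DSN1, CENPK, SPC24, CENPQ, KNTC1 and CENPH). In bulk RNA, fewer cells in mitosis and less RNA per cell cannot be told apart.

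Changes were small for most members. With a fold change over 1.5 besides the adjusted p, 2 members were lower (CENPF and CENPE) and 2 higher (DSN1 and CENPK), where 5.25% of all tested genes were lower and 5.90% higher. Both RRM2 siRNA libraries lay below both control libraries for 12 members and above both for 18, and the groups overlapped for HJURP, OIP5 and SPC25. Over all tested genes these shares were 37.3% below and 37.7% above.

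**Figure D1:**
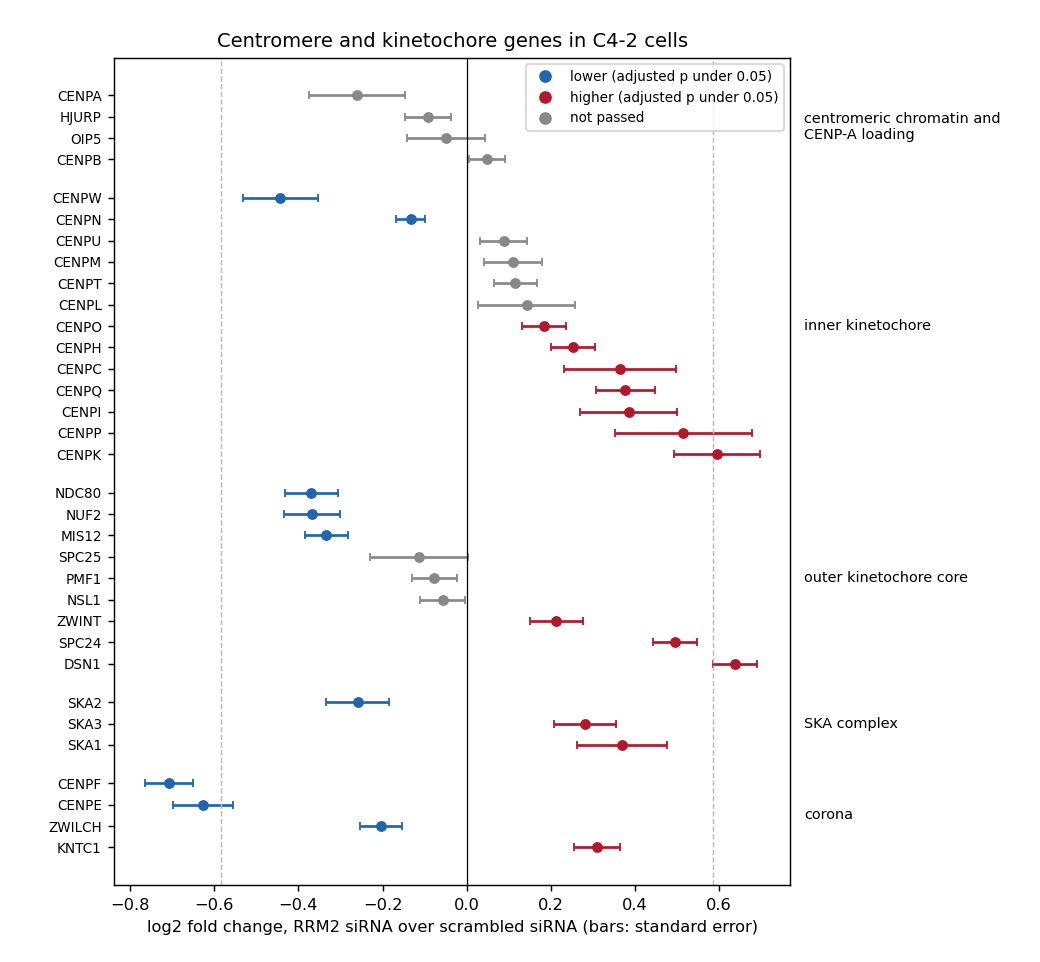
Log2 fold change of RRM2 siRNA over scrambled siRNA for the 33 members, with bars for the SE and dashed lines at a fold change of 1.5 either way. Members are grouped by role and coloured by their call, with 11 of 13 inner kinetochore genes right of 0 and CENPF and CENPE at the far left.

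The corona held the largest falls. CENPF, a large coiled-coil protein of the outer kinetochore and corona, had 2412 and 2143 normalized counts in the controls and 1429 and 1361 after RRM2 siRNA. Its RRM2 siRNA libraries sat well below both controls, at 0.613 times the control level by the fit (log2 fold change -0.71, SE 0.06; edgeR, adjusted p = 1.19e-07). CENPE, the kinesin motor that moves chromosomes toward the spindle equator, had 768 and 676 normalized counts in the control libraries and 472 and 463 after RRM2 siRNA. The groups were again apart, with a log2 fold change of -0.63 (SE 0.07; edgeR, adjusted p = 3.68e-06). The ratio of CENPF to CENPE normalized counts barely moved, from 3.14 and 3.17 to 3.03 and 2.94.

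ZWILCH and KNTC1 encode partners in the RZZ complex, which brings dynein and checkpoint proteins to the corona, and they moved in opposite directions. ZWILCH had 1258 and 1196 normalized counts in the controls and 1083 and 1049 after RRM2 siRNA (log2 fold change -0.20, SE 0.05; edgeR, adjusted p = 0.00328). It shares 158 exon bases on the opposite strand with RPL4, a ribosomal protein gene whose mean went from 58821 to 45788 normalized counts, so its reads are uncertain. KNTC1 had 1645 and 1471 normalized counts in the controls and 1963 and 1901 with RRM2 siRNA. Its groups did not overlap, and it rose by 0.31 on the log2 scale (SE 0.05; edgeR, adjusted p = 2.34e-04). ZW10, which completes RZZ and stood on the list of further kinetochore genes, was at -0.07 (SE 0.06) and missed the threshold.

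**Figure D2:**
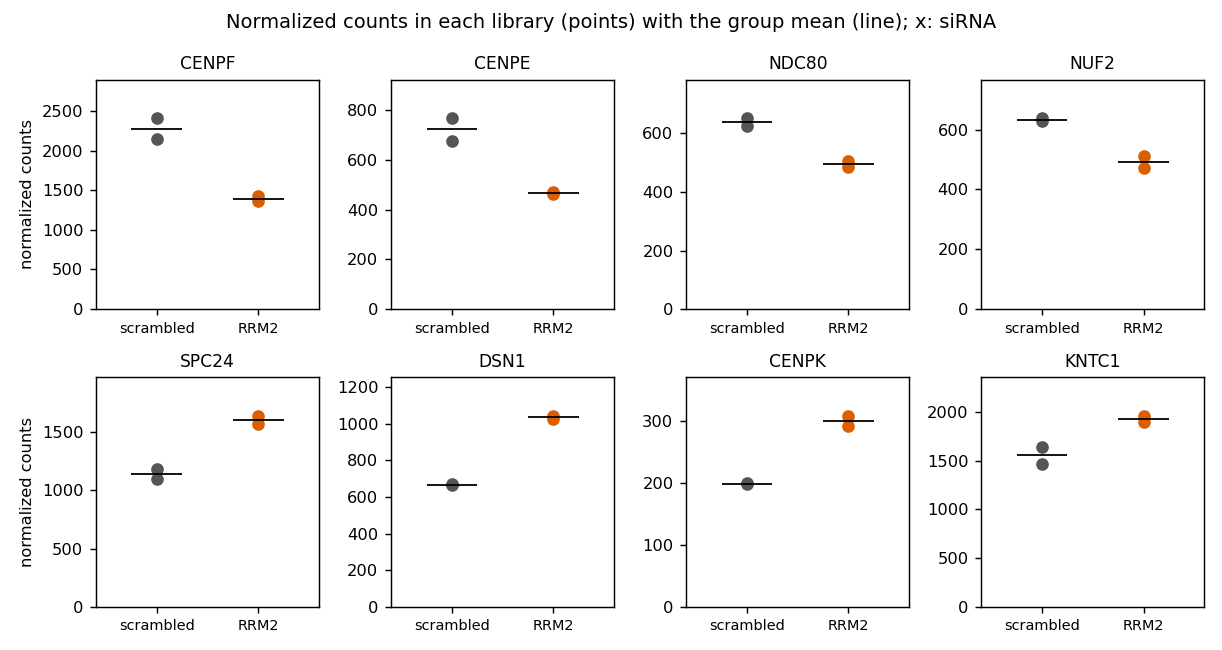
Normalized counts of 8 members in each library (points) with the group mean (line), for scrambled siRNA and RRM2 siRNA, on axes that start at 0. The groups do not overlap in any panel, with CENPF, CENPE, NDC80 and NUF2 lower and SPC24, DSN1, CENPK and KNTC1 higher after RRM2 siRNA.

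Within the NDC80 complex, the microtubule-binding pair fell and a subunit of the other end rose. NDC80 had 653 and 627 normalized counts in the controls and 487 and 505 after RRM2 siRNA, a log2 fold change of -0.37 (SE 0.06; edgeR, adjusted p = 2.03e-04). NUF2, which pairs with NDC80 along a coiled coil, had 629 and 639 in the controls and 472 and 512 after RRM2 siRNA, also a log2 fold change of -0.37 (SE 0.07; edgeR, adjusted p = 2.79e-04). The NUF2 to NDC80 ratio stayed between 0.963 and 1.02 in all 4 libraries.

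SPC24, which with SPC25 anchors the complex to the inner kinetochore, went the other way. It had 1185 and 1096 normalized counts in the control libraries and 1642 and 1573 after RRM2 siRNA, with a log2 fold change of 0.49 (SE 0.05; edgeR, adjusted p = 1.73e-06). SPC25 had 213 and 253 against 212 and 218, with overlapping groups, and did not pass (log2 fold change -0.11, SE 0.12). The ratio of SPC24 to NDC80 normalized counts was 1.81 and 1.75 in the controls and 3.37 and 3.12 after RRM2 siRNA.

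The MIS12 complex, which links the NDC80 complex to the inner kinetochore, also split. DSN1, a subunit whose phosphorylation by Aurora B promotes binding to CENP-C, had 663 and 668 normalized counts in the controls and 1028 and 1044 after RRM2 siRNA. It was the largest rise among the members, with a log2 fold change of 0.64 (SE 0.05; edgeR, adjusted p = 1.51e-07). MIS12 itself had 1113 and 1081 in the controls and 857 and 886 after RRM2 siRNA, a fall of 0.33 on the log2 scale (SE 0.05; edgeR, adjusted p = 6.75e-05). PMF1, with 876 and 919 normalized counts against 842 and 860.2, and NSL1, with 882 and 887 against 828 and 872, missed the threshold. The DSN1 to MIS12 ratio went from 0.595 and 0.618 to 1.20 and 1.18.

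KNL1, the scaffold that carries the binding sites for the BUB checkpoint proteins and was listed as CASC5, had 609.6 and 541 normalized counts in the control libraries and 617 and 636 with RRM2 siRNA. It did not pass (log2 fold change 0.12, SE 0.07; edgeR, adjusted p = 0.157). ZWINT, its partner, had 1160 and 1073 in the controls and 1381 and 1205 after RRM2 siRNA, and rose by 0.21 (SE 0.06; edgeR, adjusted p = 0.0109). The ZWINT call was lost with DESeq2 and without RRM2 siRNA replicate 1. Over the 9 counted genes of the outer kinetochore core, 3 fell, 3 rose and 3 gave no call, with a median log2 fold change of -0.08. For all tested genes the shares were 25.0% lower and 25.4% higher.

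**Figure D3:**
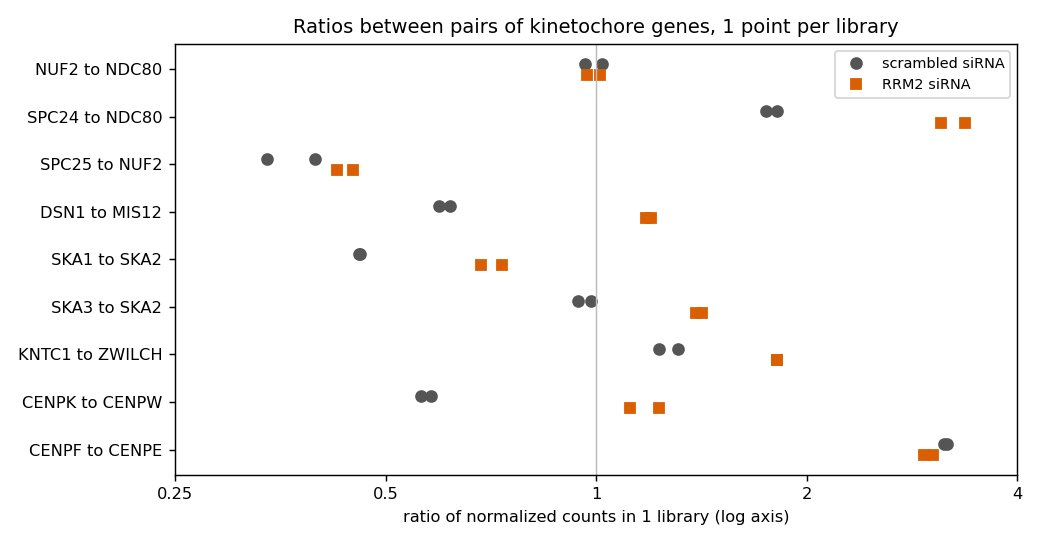
Ratios of normalized counts between pairs of kinetochore genes, 1 point per library, on a log axis. NUF2 to NDC80 and CENPF to CENPE lie close together in both groups, while SPC24 to NDC80 moves from 1.75 and 1.81 to 3.12 and 3.37 and DSN1 to MIS12 from 0.595 and 0.618 to 1.18 and 1.20.

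The inner kinetochore, also called the constitutive centromere-associated network, held more higher than lower calls by edgeR. Of its 13 genes, 7 rose, 2 fell and 4 gave no call, with a median log2 fold change of 0.18. Over all tested genes 25.4% were higher and 25.0% lower. The higher count was 3 with DESeq2 and 4 without RRM2 siRNA replicate 1. By DESeq2, 17.4% of all tested genes were higher. Both RRM2 siRNA libraries were above both controls for 11 of the 13, among them CENPU by less than 1 normalized count. They were below both for CENPN and CENPW. Over all tested genes these shares were 37.7% above and 37.3% below.

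CENPK, a subunit of the CENP-H, CENP-I, CENP-K and CENP-M module that helps to recruit new CENP-A, had 201 and 198 normalized counts in the controls and 309 and 293 after RRM2 siRNA. The groups were well apart, with a log2 fold change of 0.59 (SE 0.10; edgeR, adjusted p = 1.85e-04). CENPH, of the same module, had 888 and 940.1 in the controls and 1099 and 1079 after RRM2 siRNA, a rise of 0.25 (SE 0.05; edgeR, adjusted p = 8.29e-04). CENPI rose by 0.38 (SE 0.12; edgeR, adjusted p = 0.0122), from 215 and 184 to 274 and 247 normalized counts. CENPM, at 545 and 618 against 624 and 631, was not called, at 0.11 (SE 0.07), but passed without scrambled siRNA replicate 2 (log2 fold change 0.20). The CENPI call was lost with DESeq2, without scrambled siRNA replicate 2 and without RRM2 siRNA replicate 1.

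In the module of CENP-O, CENP-P, CENP-Q and CENP-U, which acts in recovery from spindle damage and recruits PLK1 through CENP-U, 3 of 4 genes rose. Among all tested genes, edgeR called 25.4% higher. CENPQ had 379.9 and 375 normalized counts in the controls and 485 and 496 after RRM2 siRNA (log2 fold change 0.38, SE 0.07; edgeR, adjusted p = 3.71e-04). CENPP, at 126 and 99.9 against 166 and 157, rose by 0.51 (SE 0.16; edgeR, adjusted p = 0.0153). CENPO, at 946 and 945 against 1107 and 1041, rose by 0.18 (SE 0.05; edgeR, adjusted p = 0.00803). CENPU, at 1146 and 1141 against 1283 and 1146, did not pass. The CENPP call was lost with DESeq2 and without scrambled siRNA replicate 2, and the CENPO call with DESeq2 and without RRM2 siRNA replicate 1. CENPP shares 38.0% of its exon bases with IPPK on the opposite strand, and CENPO shares 27.0% with ADCY3, so their reads are uncertain.

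CENPC, the blueprint protein that binds CENP-A nucleosomes and the MIS12 complex, had 154 and 142 normalized counts in the control libraries and 194 and 187 with RRM2 siRNA. It rose by 0.36 on the log2 scale (SE 0.13; edgeR, adjusted p = 0.0323), a call lost with DESeq2 and without each library in turn other than RRM2 siRNA replicate 2. CENPT and CENPW carry histone folds and form a second bridge to the NDC80 complex, and their genes did not move alike. CENPW had 346 and 352 normalized counts in the controls and 251 and 262 after RRM2 siRNA, a fall of 0.44 (SE 0.09; edgeR, adjusted p = 6.87e-04). CENPT had 1454 and 1499 against 1664 and 1534 and did not pass (log2 fold change 0.12, SE 0.05), though it did without RRM2 siRNA replicate 2 (log2 fold change 0.17).

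CENPN and CENPL form the pair that reads the CENP-A nucleosome together with CENP-C. CENPN stood out by its level, at 16655 and 16598 normalized counts in the controls and 15179 and 15137 after RRM2 siRNA. Per kilobase of annotated exon its control mean was 4660 normalized counts, against 1133 for CENPB, the next highest, and 11.5 for CENPP, the lowest of the 33. Its change was small, a log2 fold change of -0.13 (SE 0.03; edgeR, adjusted p = 0.00468), and the call was lost without either RRM2 siRNA library. CENPN shares 457 exon bases with CMC2, which lies on the opposite strand and had means of 2735 and 2822 normalized counts. CENPL, at 197 and 194 against 220.3 and 211, did not pass.

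The 4 members of the group of centromeric chromatin and CENP-A loading gave no calls: 0 of 4 passed by edgeR, DESeq2 or limma voom. Over all tested genes edgeR called 25.0% lower and 25.4% higher. MIS18A, counted with the further kinetochore genes and not with these 4, rose by 0.19 (SE 0.07; edgeR, adjusted p = 0.0367). Of the 4, only CENPA had an unadjusted p under 0.05, by edgeR and by limma voom but not by DESeq2. CENPA had 280.1 and 246 normalized counts in the controls and 204 and 236 after RRM2 siRNA, so the groups did not overlap but lay close. Its log2 fold change was -0.26 (SE 0.11; edgeR, adjusted p = 0.0708), and it passed without scrambled siRNA replicate 2 and without RRM2 siRNA replicate 2. With a replicate block it passed as well (edgeR, adjusted p = 0.0351), although the replicate numbers do not pair the libraries. HJURP, its chaperone, had 1474 and 1392 against 1409 and 1279.7, with overlapping groups (log2 fold change -0.09, SE 0.05; edgeR, adjusted p = 0.182), and passed without RRM2 siRNA replicate 1. OIP5, part of the MIS18 complex that licenses CENP-A loading, had 292 and 297 against 296 and 273, and its groups overlapped (log2 fold change -0.05, SE 0.09). It shares 38.0% of its exon bases with OIP5-AS1 on the opposite strand, whose mean went from 1311 to 1674 normalized counts, so its reads are uncertain too. CENPB, which binds a sequence box in alpha-satellite DNA, had 3210.1 and 3226 against 3393 and 3262, and its log2 fold change was 0.05 (SE 0.04).

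All 3 SKA genes passed, and their directions differed. By edgeR, 25.4% of all tested genes were higher and 25.0% lower. SKA1, the microtubule-binding subunit, had 259.95 and 243 normalized counts in the controls and 356 and 293 after RRM2 siRNA, a rise of 0.37 (SE 0.11; edgeR, adjusted p = 0.00951). SKA3, which binds the NDC80 complex, rose by 0.28 (SE 0.07; edgeR, adjusted p = 0.00510), from 556 and 499 to 676 and 605. SKA2 fell by 0.26 (SE 0.08; edgeR, adjusted p = 0.00981), from 565 and 529 to 486 and 428. These calls were less firm than those of the NDC80 complex. DESeq2 kept 1 of the 3, SKA3, both rises were lost without RRM2 siRNA replicate 1, and the fall was lost without RRM2 siRNA replicate 2.

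Compared per kilobase of GENCODE v29 exon, levels differed far more between members than between the groups. In the controls the 4 NDC80 complex genes had mean normalized counts per kilobase of 402 (SPC24), 189 (NUF2), 178 (NDC80) and 126 (SPC25), and after RRM2 siRNA 566, 146, 138 and 117. SPC24 was the highest of the 4 in both groups and NUF2 and NDC80 stayed next to each other. In the corona the control means per kilobase were 253 (ZWILCH), 195 (CENPF), 138 (KNTC1) and 76.4 (CENPE), and after RRM2 siRNA 219.9, 119, 171 and 49.5, so KNTC1 passed CENPF. In the MIS12 complex DSN1 had 243 per kilobase against 347 for MIS12 in the controls, and 378 against 276 after RRM2 siRNA, an exchange of order seen in both libraries. The level of HJURP per kilobase was 375 in the controls and 352 after RRM2 siRNA, above that of its cargo CENPA at 133 and 111.

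Ratios within a library shifted for other pairs as well. The ratio of KNTC1 to ZWILCH normalized counts was 1.31 and 1.23 in the controls and 1.81 in both RRM2 siRNA libraries. SKA3 to SKA2 went from 0.984 and 0.943 to 1.39 and 1.42, and CENPK to CENPW from 0.580 and 0.562 to 1.23 and 1.12. HJURP to CENPA, at 5.26 and 5.67 against 6.90 and 5.43, overlapped between the groups.

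Late cell cycle elements were found in promoters of members called lower, called higher and not called. RefSeq gave a promoter of 250 bases before and 50 after the start for 29 of the 33 (not for CENPH, CENPL, CENPM and KNTC1). A CHR match was in 14 of the 29, or 48.3%, against 11.8% of the promoters of all tested genes and 16.4% of all 35116 promoters in the table. A CCAAT box was in 58.6% of the members' promoters, against 34.5% of those of tested genes and 34.6% of all, and an E2F core in 34.5%, against 12.2% and 8.54%. By direction, a CHR match was in 5 of 9 lower members, 5 of 11 higher members and 4 of 9 that did not pass. An E2F core was in 2 of 9 lower, 3 of 11 higher and 5 of 9 that did not pass.

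The NDC80 complex gave a finer picture, chosen after its values were seen. NDC80, NUF2 and SPC25 each hold a CHR match close to the transcript start, with first bases at -3 and 4 in NDC80, at 17 in NUF2 and at -3 in SPC25. SPC24, the 1 subunit that rose, held CCAAT boxes and no CHR match in its 300 bases. Outside the complex, CENPC, ZWINT, SKA3, SKA1 and CENPO, called higher, hold a CHR match at -90, -31, -3, 35 and 37. The ZWINT position is counted from a start 14 bases inside the gene. MIS12, SKA2 and ZWILCH, called lower, hold no CHR match. The DSN1 promoter held none of the 3 motifs, nor did those of CENPE, CENPP, CENPT and NSL1, so the falls and the rises both include promoters without a match. The window given for CENPI, also without a match, starts from a transcript 2854 bases inside the gene, so the promoter at its first start was not searched. A match says only that these letters are present, and binding was not measured.

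**Figure D4:**
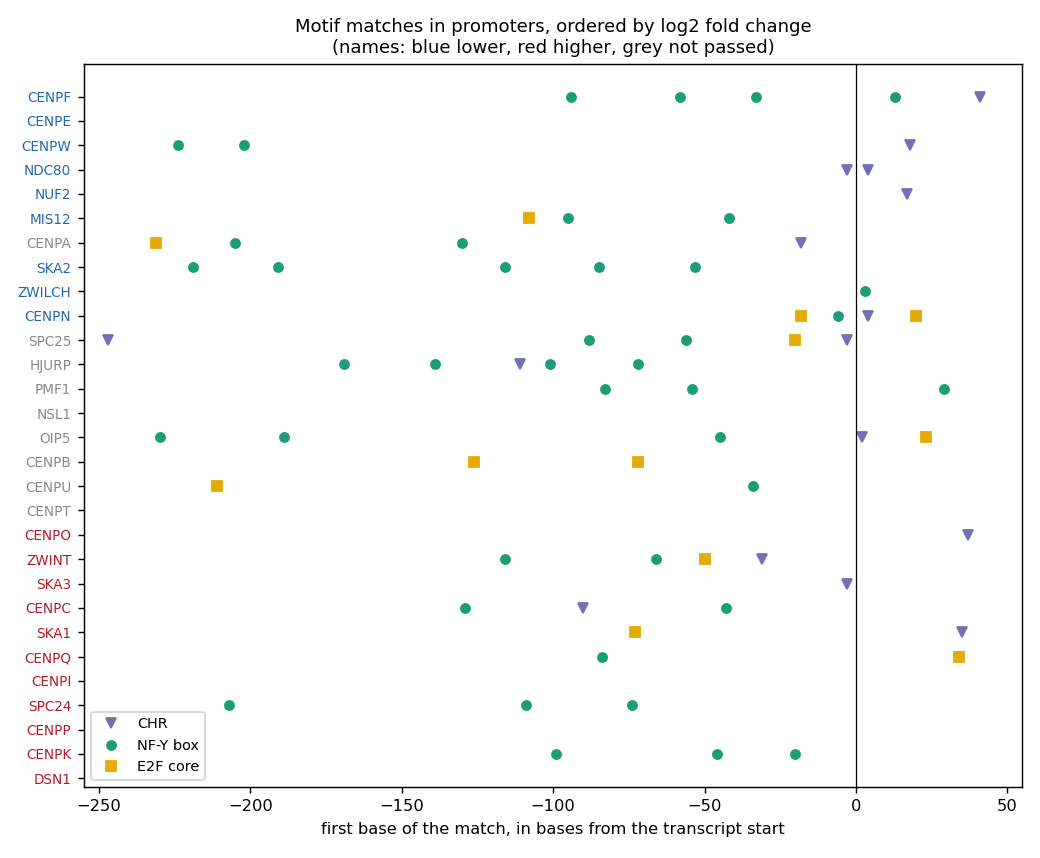
Positions of CHR, CCAAT (NF-Y box) and E2F core matches in the promoters of 29 members, in bases from the transcript start, with genes ordered from the lowest to the highest log2 fold change. CHR matches lie near the start for NDC80 (-3 and 4), NUF2 (17) and SPC25 (-3). They also lie there for SKA3 (-3), ZWINT (-31), SKA1 (35) and CENPO (37), which rose, and further upstream for CENPC (-90), which rose too. They are absent from SPC24 and DSN1, which rose, and from CENPE, MIS12, SKA2 and ZWILCH, which fell.

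Kinetochore genes not counted among the members showed both directions as well. The shares over all tested genes, for this list and those that follow, were 25.4% higher and 25.0% lower. Of 19 further kinetochore genes tested, KNL1 among them, 6 rose, 2 fell and 11 gave no call, with a median log2 fold change of 0.09. They ran from SPDL1, a dynein adaptor of the corona, at -0.29 (SE 0.06; edgeR, adjusted p = 0.00153), to NDEL1, a dynein regulator, at 0.23 (SE 0.05; edgeR, adjusted p = 7.32e-04). SPAG5 (astrin) and MIS18A were among the higher genes. Of 9 genes of the chromosomal passenger complex and centromeric cohesion, 4 were higher and 2 lower, with a median of 0.12. CDCA5 (sororin), which protects cohesin, rose by 0.65 (SE 0.05; edgeR, adjusted p = 7.00e-08), while INCENP, the scaffold of the Aurora B complex, fell by 0.34 (SE 0.05; edgeR, adjusted p = 7.54e-05). Of 8 spindle checkpoint genes, 4 were lower and 0 higher by edgeR, a 0 that also stood at an unadjusted p under 0.05 and with DESeq2 and limma voom. Both RRM2 siRNA libraries lay below both controls for 4 of the 8 and above both for 2. Over all tested genes these shares were 37.3% below and 37.7% above. BUB1 and BUB1B, kinases that act at the kinetochore, had log2 fold changes of -0.53 (SE 0.06; edgeR, adjusted p = 1.75e-06) and -0.43 (SE 0.05; edgeR, adjusted p = 5.13e-06), and MAD2L1 was the highest of the 8 at 0.11 (SE 0.06). Whether these lists differ from the members was not tested.

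Some members share exon bases with other genes, and whether the siRNA pool acted on any member directly was not tested. Of the 33, 13 share exon bases with another tested gene in GENCODE v29, 11 of them with genes on the opposite strand alone, and whether counting used strand is not stated in the sources at hand. Without these 13, 5 members were lower and 10 higher, where 25.0% of all tested genes were lower and 25.4% higher. PMF1 shares 587 exon bases with the read-through gene PMF1-BGLAP, so its counts are uncertain. An siRNA can lower other transcripts that match its seed, and the sequences of the pool were not used here. The word AAGTCCA and the overlapping word AGTCCAA, both present in the RRM2 mRNA and searched because of earlier results of these data, are in annotated transcripts of 10 members, among them CENPF, CENPN and ZWILCH but not CENPE, NDC80, NUF2, MIS12 or CENPW. Of the 10, 3 were lower and 4 higher, and of the 23 without either word 6 were lower and 9 higher. The part of such words in any single fall was not tested.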

How the data were processed

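RNA from C4-2 cells with scrambled siRNA or RRM2 siRNA was sequenced in 2 libraries per group (27844121 to 29941671 counts each). The authors deposited 1 table of estimated counts (expected counts) per gene from Partek Flow (no version given), not normalized, with some values that are not whole. No source used here names the aligner, annotation or build. The rows of all 33 members overlap their RefSeq positions in GRCh38.p14. Counts were rounded, filtered with filterByExpr (15840 genes kept), scaled by TMM, and compared by the quasi-likelihood test of edgeR 4.0.16 in R 4.3.3 without a block. Benjamini-Hochberg adjustment ran over all genes kept. Normalized counts are TMM-scaled CPM times the mean effective library size. The scripts were tested on simulated data. A spreadsheet had turned 27 symbols into dates, and those rows were kept under placeholder names. Libraries of a group were not duplicates (chi-square per degree of freedom without structural RNA genes 2.95 and 1.98). Exon lengths and overlaps came from GENCODE v29. Alternatives were other scalings and filters, DESeq2 1.42.0, limma voom (limma 3.58.1), a replicate block, each library left out and fold thresholds. Leaving out members with shared exons or siRNA words was added after seeing the data. Members and lists were chosen with earlier results of these data known. Every member is named or counted in its role group, with values by library for the extremes of each group, for members past a fold change of 1.5 and for CENPA, NDC80 and KNL1; other genes with values were picked after those values were seen. The values of 1 marker of another cell type are not reported here.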

Additional observations from a re-analysis of the deposited data

How the results depend on the processing

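Against 9 lower and 13 higher members, a fold change over 1.5 left 2 lower and 2 higher, and one over 2 left 0 and 0 by edgeR (also 0 at an unadjusted p under 0.05 and by DESeq2 and limma voom). DESeq2 called 7 higher, and leaving out members with shared exons left 5 lower. With each library left out in turn, lower members numbered 8 to 10, higher members 7 (without RRM2 siRNA replicate 1) to 14, and the median log2 fold change was 0.017 to 0.10. A lone library left in a group was assumed to vary like the other group. Signs changed for uncalled members only: OIP5 ran from -0.11 to 0.0040 (without RRM2 siRNA replicate 2) and SPC25 from -0.24 to 0.014 (without scrambled siRNA replicate 2). Of the 22 calls, 13 held in every fit. With the replicate block 10 members were lower and 13 higher; libraries share only a number, and the correlation of same-numbered deviations was -0.02 over 12313 genes. Other scalings, other filters and limma voom changed no member's call. With 2 libraries per group and members down to about 100 counts, small changes of low genes were not detectable.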
